A study of Mus musculus with 4 samples.

Results

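The transcripts described here encode the Wnt ligands, their Frizzled receptors and Lrp co-receptors, the secreted antagonists of the Sfrp and Dkk families, Dishevelled, the beta-catenin destruction complex and the TCF/LEF transcription factors. Members were chosen by a rule on gene symbols, among the probe sets annotated to a single gene. The rule uses no values, but it was set with earlier results of these data known. The rule found 51 probe sets of 50 genes among 21044 such probe sets of 19452 genes. They comprise 19 Wnt ligands, 10 Frizzled receptors, 4 Sfrp genes, 4 Dkk genes, 2 co-receptors, 3 Dishevelled genes, 5 genes of the destruction complex and 3 TCF/LEF genes. *Wnt4* alone has 2 probe sets, and *Tcf7* was not analysed here.

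Both groups came from proliferating C2C12 (LKO-1) cells, a mouse myoblast line carrying an empty lentiviral vector and kept in puromycin. The cells were harvested before they reached confluence. In one group RNA was recovered from lysate with monoclonal antibody 3B1 against CUGBP1 (CUGBP1 IP, or IP, 2 arrays), and in the other with normal IgG (control IgG, or IgG, 2 arrays). CUGBP1 binds GU-rich elements in RNA and can recruit deadenylases, and the comparison asks which transcripts come down with it. Input RNA was not analysed here, so the values do not separate how much of a transcript the cells hold from how much of it CUGBP1 binds. In lysate of many cells, fewer cells with a transcript and less of it per cell cannot be told apart.

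In canonical Wnt signalling, a secreted Wnt binds a Frizzled receptor together with Lrp5 or Lrp6, and Dishevelled then relays the signal to a complex of Axin, APC and GSK3. That complex otherwise marks beta-catenin for degradation, and when it is held back beta-catenin enters the nucleus and acts with TCF/LEF factors on target genes. Sfrp proteins bind Wnts, whereas Dkk proteins such as Dkk1 bind the Lrp co-receptors. In muscle, Wnt signals act in the embryonic specification of muscle precursors and in regeneration from satellite cells.

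Each value is an intensity set against the 5th percentile of its own array, so a probe set without signal reads about 1. The 95th percentile of olfactory and vomeronasal receptor probe sets, a class assumed not to be expressed in myoblasts, was taken as the limit of background. This limit was 1.23 and 1.29 for the IP arrays, against 1.09 and 1.16 for the IgG arrays. The control IgG arrays differed in brightness, with a 95th percentile over all probe sets of 2.36 on replicate 1 and 5.96 on replicate 2, against 9.37 and 13.0 for the CUGBP1 IP arrays. All 10 myoblast markers, *Myod1* and *Myf5* among them, were above background on both CUGBP1 IP arrays, and their summed level was 48.8 and 54.9 in the IP against 14.7 and 22.6 with IgG, although limma called 0 of them. Of 8 markers of differentiated muscle, 5 were above background on both CUGBP1 IP arrays, as were 55.4% of all genes, and 2 on all 4 arrays. The sums of the 8 were 12.8 and 13.1 against 9.0 and 10.3. Of 4 adipocyte markers only *Plin1* was above background there, and 0 of 4 endothelial, 0 of 5 macrophage and 0 of 3 osteoblast markers were.

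*Fzd6* rose in the CUGBP1 IP relative to control IgG, with a ratio of 9.01. The TCF/LEF factors *Tcf7l2*, *Tcf7l1* and *Lef1*, the antagonist *Sfrp2* and the kinase *Gsk3b* had ratios from 2.61 to 5.72 that did not pass the test. These 6 transcripts lay in the top 5% of the signal-to-negative ratio, which is the mean of both IP arrays divided by that of both IgG arrays. The Dkk antagonists read close to background in both groups. The Wnt ligands were dim, with values up to 2.16 in the IP. Of the 19 ligands, 9 (47.4%) were above background on both IP arrays, against 55.4% of all genes. limma called 1 member probe set, that of *Fzd6*, higher in the CUGBP1 IP (1.96% of 51), against 1.95% of all tested probe sets. A share so near the background is not a result about the members as a group. limma called 0 members lower, against 0.138% of all, and 18 member probe sets (35.3%) had an unadjusted p under 0.05, against 29.1% of all.

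The top 5% of the ratio, which began at 2.57, held 6 of the 51 member probe sets (11.8%), against 5.0% of all probe sets by definition. It held 3 members without control IgG replicate 2, with quantile normalization and among probe sets whose mean was above background. Both IP values exceeded both IgG values for 39 member probe sets (76.5%), against 66.3% of all, and both were below for 0. The median log2 difference, CUGBP1 IP minus control IgG, was 0.34 over the 50 genes and 0.29 over all genes. That shift of all genes depends on the scaling, being 0.01 after each array was scaled to its median and -0.01 with quantile normalization. As deposited, 49 of the 50 genes had a log2 difference above 0 (94.05% of all genes), compared with 30 after scaling to array medians (51.5% of all genes) and 22 after quantile normalization (46.1% of all genes), and 18 genes were above 0 under all 3 scalings. With 2 arrays per group an exact permutation test of a single gene cannot give a two-sided p below 0.333, so the p-values here are those of limma, which took the spread of a probe set from all probe sets of similar intensity rather than from its own 4 values. Nothing in the labels says that replicates came from separate cultures, so the p-values measure only the spread between these samples, which may be technical.

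**Figure D1:**
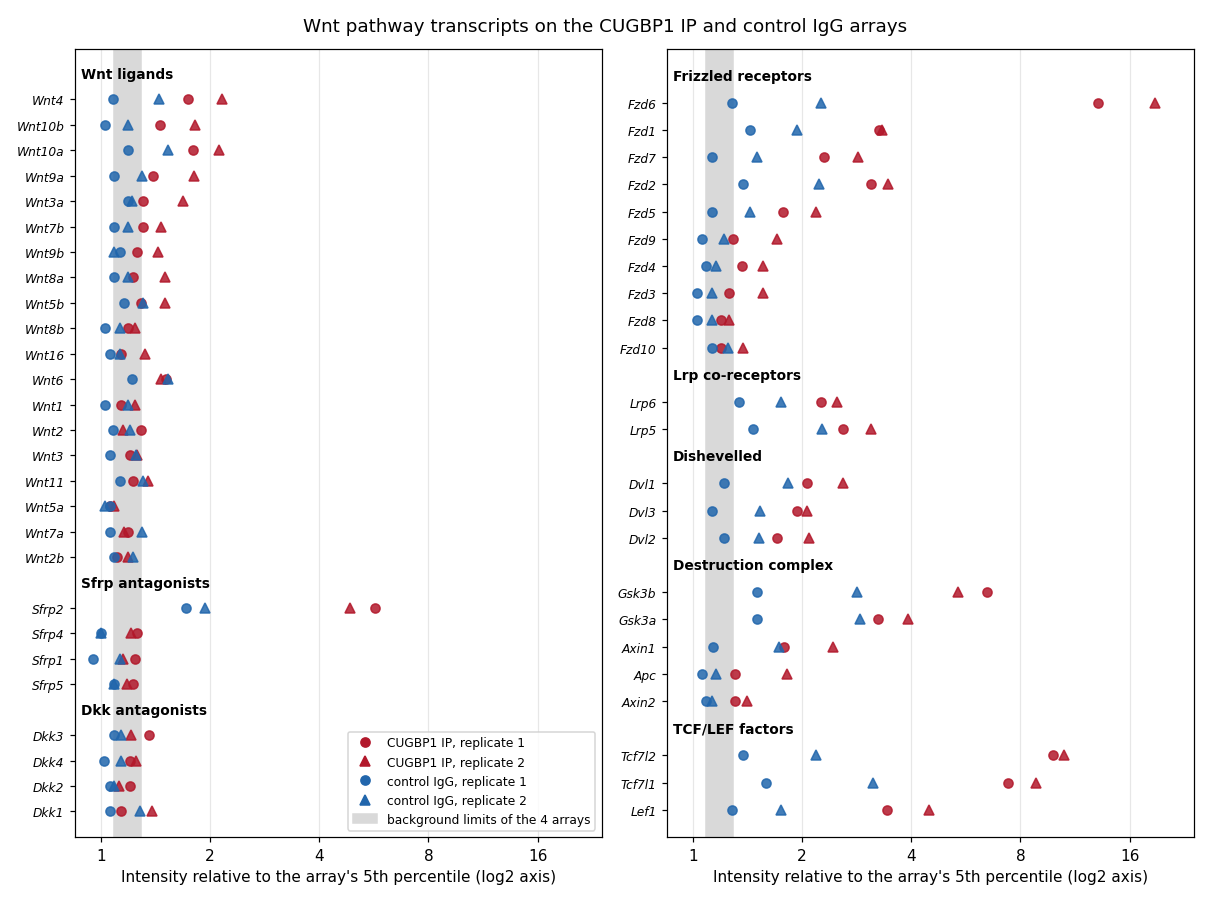
Array intensity of the 50 genes in units of the 5th percentile (log2 axis), 1 point per array, with CUGBP1 IP in red and control IgG in blue; the grey band spans the background limits of the 4 arrays, 1.09 to 1.29. Most Wnt ligands and all Dkk genes lie in or near the band, whereas *Fzd6* read 13.1 and 18.8 in the IP, against 1.28 and 2.25 with IgG.

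*Fzd6* encodes a Frizzled receptor known from planar cell polarity, for example in the orientation of hair follicles. Its probe set (10423825) read 13.1 and 18.8 in the IP, against 1.28 and 2.25 with IgG. Both CUGBP1 IP values were high and far from either control, and all 4 values were above background. *Fzd6* rose from 1.77 ± 0.686 to 15.9 ± 4.02 (mean ± SD, n = 2 arrays each), a ratio of 9.01 and a log2 difference of 3.20 ± 0.97 SE (adjusted p = 0.0492 by limma). The ratio lay at percentile 99.7 of all tested probe sets, and it was 12.4 against control IgG replicate 1 alone and 7.07 against replicate 2 alone. The call lies close to the threshold. It was lost without the intensity trend (limma adjusted p = 0.144, with the same log2 difference) and with any array left out (limma adjusted p from 0.172 without control IgG replicate 2 to 0.663 without CUGBP1 IP replicate 2, log2 difference from 2.80 to 3.61). In these settings limma called 0 of all 21044 probe sets. With quantile normalization the log2 difference was 1.94 and remained called.

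The other Frizzled transcripts were lower in ratio. *Fzd7*, which encodes a receptor for Wnt7a in muscle satellite cells, read 2.30 and 2.85 in the IP, against 1.13 and 1.5 with IgG. Its ratio was 1.96, with a log2 difference of 0.98 ± 0.35 SE (adjusted p = 0.0870 by limma), and it passed the threshold with arrays scaled to their medians (0.70, limma adjusted p = 0.0143). *Fzd1* read 3.26 and 3.32 against 1.44 and 1.94, a ratio of 1.95 (log2 0.98, SE 0.48, limma adjusted p = 0.163). Its log2 difference was -0.0449 with quantile normalization, so its direction depends on the scaling. *Fzd2* read 3.10 and 3.46 against 1.38 and 2.23, a ratio of 1.82, and its log2 difference was -0.0955 with quantile normalization. *Fzd5* read 1.77 and 2.18 against 1.13 and 1.44, a ratio of 1.54. Both IP values exceeded both IgG values for these 4 receptors, as for 67.1% of all genes, but none of the differences passed the threshold as deposited.

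*Fzd3*, *Fzd4*, *Fzd9*, *Fzd8* and *Fzd10* were dim. Control IgG was within background on both arrays for *Fzd3* and *Fzd4*, which were at least 1.25-fold and at least 1.30-fold higher in the CUGBP1 IP against the background limit (limma adjusted p = 0.131 and 0.164). The background limit itself was 1.12-fold higher on the IP arrays than on the IgG arrays. *Fzd9* read 1.29 and 1.71 against 1.06 and 1.22. *Fzd8* was not above background on any array, and *Fzd10* read 1.20 and 1.38 in the IP, against 1.13 and 1.25 with IgG, so that its groups overlapped. Of the 10 Frizzled genes, 9 had both IP values above both IgG values, as did 67.1% of all genes, and the log2 difference was above 0 for 10 as deposited, for 8 with arrays scaled to their medians and for 7 with quantile normalization. The ratio of *Fzd6* was 4.60 times that of *Fzd7*, the next in order. The difference between these receptors was not tested.

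All 3 TCF/LEF transcripts measured were in the top 5% of the ratio, with log2 differences above 0 under all 3 scalings, although limma called none of them and 3 had an unadjusted p under 0.05. *Tcf7l2* encodes the TCF4 protein, a partner of beta-catenin on target genes that also marks fibroblasts of muscle connective tissue. It read 9.86 and 10.6 in the IP, against 1.38 and 2.19 with IgG. The CUGBP1 IP arrays lay close together and far above either control. Its ratio was 5.72, at percentile 99.2 of all tested probe sets, with a log2 difference of 2.55 ± 0.85 SE (adjusted p = 0.0688 by limma). The transcript passed the threshold with arrays scaled to their medians (limma adjusted p = 0.0335), with quantile normalization (0.0120), with an offset of 1 (0.0497) and among probe sets whose mean was above background (0.0369).

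*Tcf7l1*, whose product TCF3 often acts as a repressor of Wnt target genes, read 7.39 and 8.81 in the IP, against 1.59 and 3.14 with IgG. Its ratio was 3.42 and its log2 difference 1.85 (SE 0.85, limma adjusted p = 0.150). The control arrays differed for this gene, with a ratio of 5.09 against replicate 1 alone and of 2.58 against replicate 2 alone. *Lef1*, a lymphoid enhancer factor that activates Wnt target genes, read 3.43 and 4.47 against 1.28 and 1.75. Its ratio of 2.61 was just above the start of the top 5% (log2 1.39, SE 0.50, limma adjusted p = 0.0879), and it was called with arrays scaled to their medians (log2 1.11, limma adjusted p = 0.0239). *Lef1* was outside the top 5% without control IgG replicate 2, without CUGBP1 IP replicate 2, with quantile normalization, with an offset of 1 and among probe sets whose mean was above background.

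**Figure D2:**
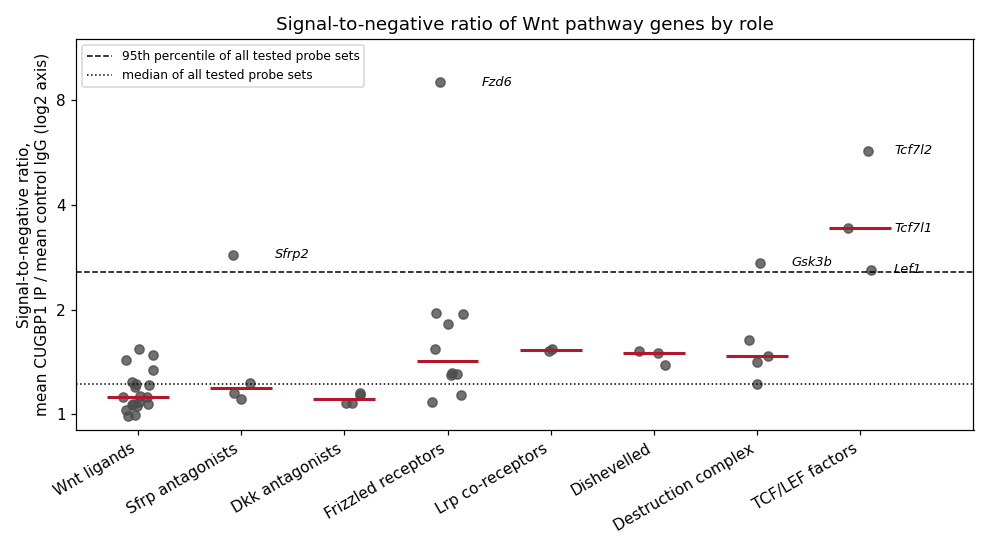
Signal-to-negative ratio (log2 axis) of each gene, grouped by role, with a red bar at the median of the group; the dashed line is the 95th percentile of all tested probe sets, 2.57, and the dotted line their median, 1.22. All 3 TCF/LEF genes lie above the dashed line, as do *Fzd6* (9.01), *Sfrp2* (2.88) and *Gsk3b* (2.73).

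The Wnt ligand transcripts showed little signal in either group. Their values ran from 1.06 to 2.16 in the CUGBP1 IP and from 1.03 to 1.53 in control IgG, 0 of 19 were called, 2 had an unadjusted p under 0.05, and 0 were in the top 5%. Of the 19 genes, 9 (47.4%) were above background on both CUGBP1 IP arrays, against 55.4% of all genes. Another 4 were above it on a single one and 6 on none. Over all 19452 genes, 2063 were above it on a single one and 6621 on none. *Wnt4*, a ligand of kidney and reproductive tract development, had the highest log2 difference among them. It read 1.74 and 2.16 in the IP, against 1.08 and 1.45 with IgG, a log2 difference of 0.63 ± 0.28 SE (adjusted p = 0.138 by limma). Its second probe set (10509273) read 1.29 and 2.03 against 0.97 and 1.53, so that the groups overlapped there.

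*Wnt10b*, a ligand known to restrain adipogenesis in muscle precursors, read 1.46 and 1.82 in the IP, against 1.03 and 1.19 with IgG (log2 0.56, SE 0.21, limma adjusted p = 0.103). *Wnt10a* read 1.79 and 2.12 against 1.19 and 1.53 (log2 0.53, SE 0.29, limma adjusted p = 0.191), and with quantile normalization its log2 difference was -0.0967. At the other end, *Wnt2b* read 1.11 and 1.19 in the IP, against 1.09 and 1.23 with IgG, with a log2 difference of -0.011 ± 0.12 SE (adjusted p = 0.946 by limma). The ligands *Wnt5a* and *Wnt8b* were within background on all 4 arrays. In 10 of the 19 genes (52.6%) both IP values exceeded both IgG values, against 67.1% of all genes, and in 9 the groups overlapped. As deposited, 18 ligands had a log2 difference above 0, compared with 7 after scaling to array medians and 4 after quantile normalization.

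Of the secreted antagonists, 1 of 4 Sfrp genes and 0 of 4 Dkk genes were in the top 5%. *Sfrp2*, which encodes a Wnt-binding protein, read 5.69 and 4.85 in the IP, against 1.72 and 1.94 with IgG. The 4 values were all above background and the groups were well separated. The ratio was 2.88, with a log2 difference of 1.52 ± 0.65 SE (adjusted p = 0.131 by limma). It was 3.06 against control IgG replicate 1 alone and 2.72 against replicate 2 alone. It was outside the top 5% without control IgG replicate 2, without CUGBP1 IP replicate 1, among probe sets whose mean was above background and with quantile normalization, where its log2 difference was 0.24.

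*Sfrp4* read 1.26 and 1.21 in the CUGBP1 IP and 1.00 on both control IgG arrays. It had 1 CUGBP1 IP value above background, and the log2 difference of the measured values was 0.30 (SE 0.094, limma adjusted p = 0.0540). With an offset of 1 it was called (limma adjusted p = 0.0453). It was not called with arrays scaled to their medians (log2 0.030, limma adjusted p = 0.835) or with quantile normalization (log2 0.20, limma adjusted p = 0.246). Against the background limit of control IgG *Sfrp4* was at least 1.10-fold higher in the CUGBP1 IP. The background limit itself was 1.12-fold higher on the IP arrays, which exceeds this fold, so no rise beyond background is shown. *Sfrp1* read 1.24 and 1.15 against 0.95 and 1.13, and *Sfrp5* 1.23 and 1.18 against 1.09 on both control arrays. Both were within background in control IgG, and *Sfrp5* was also within it in the CUGBP1 IP.

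The 4 Dkk transcripts were near background throughout. *Dkk3* read 1.36 and 1.21 in the IP, against 1.09 and 1.14 with IgG, while *Dkk1* read 1.14 and 1.38 against 1.06 and 1.28, with overlapping groups. *Dkk2* (1.20 and 1.12 against 1.06 and 1.09) and *Dkk4* (1.20 and 1.25 against 1.02 and 1.14) were within background on all 4 arrays. limma adjusted p-values of the 4 ran from 0.231 to 0.545, with 0 at an unadjusted p under 0.05. Their log2 differences were all above 0 as deposited, all below 0 with arrays scaled to their medians, and above 0 for 1 of the 4 with quantile normalization.

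The co-receptor transcripts were measured above background on all 4 arrays. Both IP values exceeded both IgG values for each, as for 67.1% of all genes, and limma called neither. *Lrp5* read 2.59 and 3.10 in the IP, against 1.47 and 2.27 with IgG, a ratio of 1.52 (log2 0.63, SE 0.46, limma adjusted p = 0.280). *Lrp6* read 2.26 and 2.50 against 1.34 and 1.75, a ratio of 1.54 (log2 0.63, SE 0.37, limma adjusted p = 0.204). With quantile normalization both differences turned below 0, to -0.37 and -0.23.

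Dishevelled proteins pass the signal from Frizzled to the destruction complex. *Dvl1* read 2.06 and 2.59 in the IP, against 1.22 and 1.83 with IgG, *Dvl2* 1.71 and 2.09 against 1.22 and 1.52, and *Dvl3* 1.94 and 2.06 against 1.13 and 1.53. Both CUGBP1 IP values were above both control values for all 3, as for 67.1% of all genes. The ratios were 1.52, 1.39 and 1.5, and the limma adjusted p-values 0.196, 0.219 and 0.160. With quantile normalization *Dvl1* (-0.12) and *Dvl2* (-0.19) turned below 0, and *Dvl3* (0.0646) did not.

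Within the destruction complex, *Gsk3b* was the member in the top 5%. GSK3 beta is the kinase that phosphorylates beta-catenin, and it is also a kinase of glycogen and insulin signalling. *Gsk3b* read 6.46 and 5.38 in the IP, against 1.5 and 2.84 with IgG. The groups were separated, and the control arrays differed for this gene. Its ratio was 2.73 and its log2 difference 1.51 (SE 0.72, limma adjusted p = 0.157), with ratios of 3.95 against control IgG replicate 1 alone and 2.09 against replicate 2 alone. It was outside the top 5% without CUGBP1 IP replicate 1, with either control array left out, among probe sets whose mean was above background and with quantile normalization, where the log2 difference was 0.28.

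Its paralogue *Gsk3a*, which encodes a kinase of the same activity, read 3.24 and 3.93 in the IP, against 1.5 and 2.89 with IgG. The ratio was 1.63 (log2 0.78, SE 0.57, limma adjusted p = 0.281), and with quantile normalization the log2 difference was -0.32. *Axin1*, the scaffold of the complex, read 1.79 and 2.43 against 1.14 and 1.73, a ratio of 1.47 (limma adjusted p = 0.192). *Axin2*, an inducible scaffold that is itself a target of Wnt signalling, was dimmer, with 1.31 and 1.41 against 1.09 and 1.13. Control IgG was within background for *Axin2* and for the tumour suppressor *Apc*, which read 1.31 and 1.82 against 1.06 and 1.16. Against the background limit of control IgG they were at least 1.21-fold and at least 1.37-fold higher in the CUGBP1 IP (limma adjusted p = 0.188 and 0.124). The background limit itself was 1.12-fold higher on the IP arrays.

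**Figure D3:**
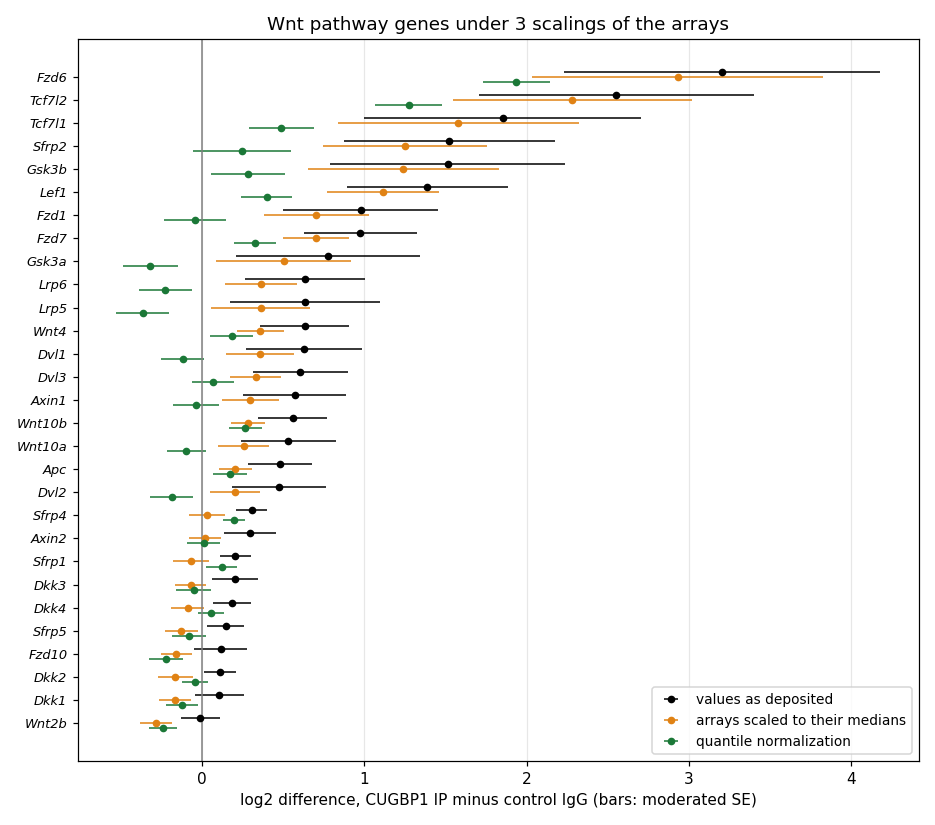
Log2 difference, CUGBP1 IP minus control IgG, of 29 named genes with moderated SE bars, as deposited (black), with arrays scaled to their medians (orange) and with quantile normalization (green). *Fzd6* (3.20, 2.93 and 1.94) and *Tcf7l2* (2.55, 2.28 and 1.27) stay far above 0, whereas *Lrp5*, *Lrp6* and *Gsk3a* cross it with quantile normalization.

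The 6 members in the top 5% were compared with each control array in turn. *Fzd6*, *Tcf7l2* and *Tcf7l1* were in the top 5% against either control array alone. *Sfrp2* and *Lef1* were in it against control IgG replicate 2 alone but not against replicate 1 alone, where the top 5% began at 3.97. *Gsk3b* was in it with both controls together and with neither alone, since its ratio of 2.09 against replicate 2 was below the 2.12 at which the top 5% began there. For 8 of the 50 genes the ratio to control IgG replicate 1 was over 1.5 times that to replicate 2. The share of all genes for this count was not computed. Against replicate 1 alone the log2 difference was above 0 for all 50 genes, and for 94.98% of all genes. Against replicate 2 alone it was above 0 for 43 of the 50, and for 87.0% of all genes.

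**Figure D4:**
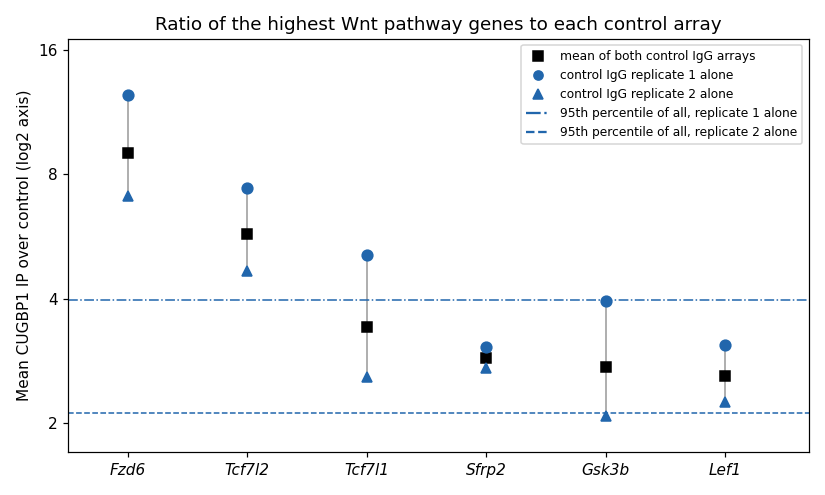
Mean CUGBP1 IP intensity over control IgG (log2 axis) for the 6 genes in the top 5%, against the mean of both control arrays (squares) and against each alone (blue), with the 95th percentile of all tested probe sets against each control array, 3.97 and 2.12, as lines. *Fzd6*, *Tcf7l2* and *Tcf7l1* lie above both lines with the corresponding control, while *Gsk3b* (3.95 and 2.09) falls just under both.

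A further 80 genes of the pathway, in 81 probe sets, were taken from a list that covers Wnt secretion, further receptors and antagonists, casein kinases, beta-catenin and its cofactors, planar polarity, calcium signalling and target genes. This list was also drawn up with earlier results of these data known. limma called 2 of these probe sets higher (2.47%, against 1.95% of all) and 0 lower, 33 (40.7%) had an unadjusted p under 0.05, against 29.1% of all, and 9 (11.1%) were in the top 5%. The called transcripts were *Bcl9*, a beta-catenin cofactor, and *Ptk7*, a receptor-like pseudokinase of planar polarity. *Bcl9* read 3.23 and 3.38 in the IP, against 1.05 and 1.56 with IgG (ratio 2.53, log2 1.37, SE 0.41, limma adjusted p = 0.0439). *Ptk7* read 2.51 and 2.74 against 1.16 and 1.25 (ratio 2.18, log2 1.12, SE 0.33, limma adjusted p = 0.0439). Both passed with arrays scaled to their medians (limma adjusted p = 0.00144 and 0.000909) and with an offset of 1, but not with quantile normalization, among probe sets whose mean was above background, without the intensity trend or with any array left out. In the last 2 settings limma called 0 of all probe sets, and the log2 difference stayed between 1.08 and 1.65 for *Bcl9* and between 1.06 and 1.18 for *Ptk7* with 1 array left out. *Ctnnb1*, which encodes beta-catenin itself, read 2.43 and 3.12 against 1.34 and 2.22, a ratio of 1.56 (limma adjusted p = 0.239), and its log2 difference was -0.25 with quantile normalization.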

How the data were processed

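RNA recovered with anti-CUGBP1 or normal IgG was hybridised by the authors to Affymetrix mouse gene arrays, 1 array per sample. The deposited values are linear intensities that the authors divided by each array's own 5th percentile; which program summarised the probes and how background was corrected is not given in the sources used here. Of 25175 probe sets, 21044 were annotated to 1 gene and analysed, 1492 named several genes and 2639 named none; 20959 were matched by gene identifier to the RefSeq gene table of GRCm38.p6 and took its symbols. No values were imputed or filtered.

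The log2 intensities of the 2 CUGBP1 IP and 2 control IgG arrays were compared in limma 3.58.1 (R 4.3.3), by lmFit followed by eBayes with an intensity trend. Tests were two-sided, and p-values were adjusted by Benjamini-Hochberg across the 21044 probe sets, with a threshold of 0.05. The fit was first run on simulated data with independent noise for each array. That check does not cover deviations that arrays share. A fold is given as "at least" where both control IgG values lay within background, and then compares the CUGBP1 IP mean with the background limits of the control IgG arrays. Background limits came from 1205 olfactory and vomeronasal receptor probe sets. The number of arrays limits the precision. Where a gene had several probe sets, that with the highest mean stood for it.

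Named genes were those called or in the top 5%, the co-receptors and transducers, the 3 largest and 1 smallest log2 differences of each other family, and of the further pathway genes those called and *Ctnnb1*; other members were named after their values were seen. Of 36 cell type markers, 34 were measured. The members and lists were chosen with earlier results of these data known. Alternatives were 2 other scalings, an offset of 1, no intensity trend, a filter on dim probe sets, all probe sets of a gene, the replicate number as a block and leaving out each array.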

Additional observations from a re-analysis of the deposited data

How the results depend on the processing

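Of 324 recomputed log2 differences of 32 named genes, 250 kept their direction and their side of the threshold, 30 came past it, 19 no longer passed it and 25 changed sign. The cause was not tested. Of the 30, 23 came past the threshold with the replicate number as a block, where limma called 56.1% of all probe sets higher. With arrays scaled to their medians 4 of 51 Wnt pathway probe sets and 14 of 81 of the further list were called (7.02% of all probe sets higher), with quantile normalization 2 and 4 (2.05% of all), with an offset of 1 before log2 3 and 7 (3.63% of all), and among probe sets with a mean above background 2 of 37 and 3 of 69 (3.57% of all). Without the intensity trend limma called 0 and 0, and 0 of all probe sets, with 16, 35 and 4757 at an unadjusted p under 0.05. Leaving out 1 array gave 0 to 0 calls in both lists, with 1 to 19 and 4 to 41 at an unadjusted p under 0.05, and over all probe sets limma also called 0. The 6 genes in the top 5% became 3 with quantile normalization, 3 among probe sets with a mean above background, and 3 to 5 with 1 array left out, the 3 without control IgG replicate 2. The median log2 difference of the genes relative to all genes was 0.054. It was -0.028 with quantile normalization and 0.0044 to 0.11 with 1 array left out. Its SD over all pairings of 1 CUGBP1 IP with 1 control IgG array was 0.06, and these pairings share arrays.

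The lists that follow cover the 32 named genes, with *Fzd2* added under quantile normalization. Over all 50 genes, 31 changed sign between the 3 scalings. Signs changed with arrays scaled to their medians for *Dkk1* (-0.17), *Dkk2* (-0.16), *Dkk3* (-0.071), *Dkk4* (-0.090), *Fzd10* (-0.16), *Sfrp1* (-0.069) and *Sfrp5* (-0.13). With quantile normalization they changed for *Axin1* (-0.0365), *Dkk1* (-0.13), *Dkk2* (-0.044), *Dkk3* (-0.052), *Dvl1* (-0.12), *Dvl2* (-0.19), *Fzd1* (-0.045), *Fzd10* (-0.23), *Fzd2* (-0.096), *Gsk3a* (-0.32), *Lrp5* (-0.37), *Lrp6* (-0.23), *Sfrp5* (-0.082), *Wnt10a* (-0.097) and *Ctnnb1* (-0.25). With 1 array left out, *Dkk1* ranged from -0.031 to 0.24 and *Wnt2b* from -0.098 to 0.076.

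With the replicate number as a block, 35 Wnt pathway probe sets and 67 of the further list were called, all higher, beside 11809 higher and 40 lower among all probe sets. Same-numbered arrays deviated together from their group means (r = 0.639, a value that is equal for both pairs by construction with 2 pairs), but nothing in the labels says what a number marks, so the numbers were not taken to pair the samples. The block leaves the top 5% unchanged, since the ratio does not come from the fit. It also leaves the median log2 difference unchanged, since each replicate number occurs once in each group.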
